A study of Mus musculus with 6 samples.

Results

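The glycolysis and hypoxia genes are 10 genes picked by name: Slc2a1, Hk2, Pfkl, Aldoa, Aldoc, Tpi1, Pgk1, Pgam1, Ldha and Bnip3. All 10 had at least 1 probe set annotated to that gene alone, 21 probe sets of the 20380 used, and they are 10 of the 12393 genes measured. The arrays profiled RNA of mouse bone marrow cells that carried an empty lentiviral vector, Rad21 shRNA1 or Rad21 shRNA2, with 2 arrays per group. The Rad21 protein is part of cohesin, which encircles DNA, keeps replicated chromosomes paired and forms chromatin loops. All 3 groups came from C57/BL6 animals 6 to 8 weeks old. Their marrow was depleted of lineage-positive cells, infected for 24 h, selected with puromycin at 1 µg/mL and plated at 10000 live cells per mL in methylcellulose with cytokines that the labels do not name, and RNA was taken after 7 days. The control carried no shRNA, so it does not control for expressing one. The cultures are mixtures of cells, and more cells of a type cannot be told apart from more RNA per cell.

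Glycolysis splits glucose into pyruvate in the cytosol and yields ATP without oxygen. Slc2a1 lets glucose in, Hk2 and Pfkl catalyse early steps that consume ATP, Aldoa and Aldoc cleave the sugar, Tpi1 interconverts the products, Pgk1 makes ATP, Pgam1 rearranges the product and Ldha turns pyruvate into lactate. When oxygen is short, the transcription factor HIF-1 binds a short motif near many of these genes and raises them, together with Bnip3, a mitochondrial outer membrane protein that marks mitochondria for removal. Myeloid cells, neutrophils above all, rely on glycolysis.

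The promoters of the 4 members with the smallest p against empty vector are shown because these members were higher together on the shRNA arrays, and because the core of the HIF-1 motif can be looked for in them. The sequences are RefSeq's for GRCm38.p6, 250 bases before to 50 after a start, written 5′ to 3′ in the gene's direction. Capitals mark ACGTG or GCGTG on either strand, so CACGT and CACGC are their reverse complements, and the E-box letters CACGTG hold ACGTG on both strands and count as 2 matches.
Bnip3: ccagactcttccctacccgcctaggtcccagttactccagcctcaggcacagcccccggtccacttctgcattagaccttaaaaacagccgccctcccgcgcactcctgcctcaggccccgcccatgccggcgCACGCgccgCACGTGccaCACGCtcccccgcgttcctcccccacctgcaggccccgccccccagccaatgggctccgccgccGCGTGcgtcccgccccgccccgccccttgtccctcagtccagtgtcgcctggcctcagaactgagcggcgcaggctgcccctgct
Aldoc, first start: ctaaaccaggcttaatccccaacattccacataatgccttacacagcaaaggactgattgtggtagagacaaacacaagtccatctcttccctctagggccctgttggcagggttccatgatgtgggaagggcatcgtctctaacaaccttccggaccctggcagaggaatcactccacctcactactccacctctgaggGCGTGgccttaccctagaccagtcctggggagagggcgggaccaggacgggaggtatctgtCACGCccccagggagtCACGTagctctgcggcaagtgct
Aldoc, second start: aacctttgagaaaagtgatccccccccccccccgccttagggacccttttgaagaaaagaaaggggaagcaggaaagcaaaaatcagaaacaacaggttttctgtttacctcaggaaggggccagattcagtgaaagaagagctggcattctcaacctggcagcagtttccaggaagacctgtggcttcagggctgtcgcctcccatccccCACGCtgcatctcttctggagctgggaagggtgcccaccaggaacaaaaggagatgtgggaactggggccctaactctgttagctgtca
Pgk1: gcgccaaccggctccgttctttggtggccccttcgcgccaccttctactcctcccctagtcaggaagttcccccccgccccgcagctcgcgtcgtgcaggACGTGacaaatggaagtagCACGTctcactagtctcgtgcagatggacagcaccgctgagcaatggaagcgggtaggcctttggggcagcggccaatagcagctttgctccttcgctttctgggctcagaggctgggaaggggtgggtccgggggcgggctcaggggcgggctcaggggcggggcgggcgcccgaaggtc
Tpi1: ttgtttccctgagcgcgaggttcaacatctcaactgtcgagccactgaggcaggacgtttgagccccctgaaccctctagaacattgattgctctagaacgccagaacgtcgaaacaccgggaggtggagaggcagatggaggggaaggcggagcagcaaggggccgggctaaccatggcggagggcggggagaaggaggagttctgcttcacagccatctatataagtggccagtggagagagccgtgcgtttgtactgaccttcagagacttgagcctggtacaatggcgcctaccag

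The Bnip3 window (chr7:138909457-138909756, minus strand) held 5 matches, of which 2 were the strands of 1 CACGTG. The Aldoc windows (chr11:78322823-78323122, plus strand, and chr11:78323948-78324247, plus strand) held 3 and 1. In the Pgk1 window (chrX:106186850-106187149, plus strand) there were 2, both ACGTG, and in the Tpi1 window (chr6:124814109-124814408, minus strand) there was none. Over all members, 14 promoters of the 10 genes were in the table. ACGTG was found in 9 of them and GCGTG in 8, against 19.6% and 32.4% of all 32851 promoters, and either in 12, against 43.8%. The Aldoa windows chr7:126799205-126799504 and chr7:126799129-126799428 overlap, so a single CACGT is counted in each. By gene, ACGTG was found in 8 of the 10, GCGTG in 6 and either in 9, while the shares of all promoters are per promoter. CACGTG was found in 2, against 7.15%. A match is only a run of letters and does not show that a factor binds there.

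Values are log2 intensities, and a gene is represented by its brightest probe set unless another is named. A difference is the shRNA mean less the empty-vector mean in log2 units, given with ± its standard error from limma. They rest on n = 4 shRNA arrays against 2 for both shRNAs together and n = 2 against 2 for a single shRNA. The threshold is an adjusted p of 0.05 over all genes. Whether replicates came from different cultures or animals is not in the labels, and the p-values reflect array-to-array spread alone, and that spread may be technical.

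Array medians ran from 100.2 to 104.9 on the linear scale. Rad21 was lower on all 4 shRNA arrays (9.11 to 9.63) than on the empty-vector arrays (11.14 and 10.49), a difference of -1.47 ± 0.26 (adjusted p = 0.0558, 0.0166 with the replicate number as a block, 0.0651 and 0.00721 without empty-vector replicates 1 and 2, and 0.152 to 0.203 without any 1 shRNA array). A second, dimmer Rad21 probe set (6.64 and 7.13 in empty vector, 6.10 to 6.86 with the shRNAs) overlapped between groups, with a difference of -0.43 ± 0.29, and the remaining set differed by -1.78 ± 0.40. Empty-vector replicate 1 stood apart. On it the Affymetrix control probe sets for Gapdh, itself a glycolytic enzyme, read 12.16 at the 3′ end and 9.73 at the 5′ end. On empty-vector replicate 2 they read 13.07 and 13.05, and on the 4 shRNA arrays 13.21 to 13.37 and 13.28 to 13.42. The Actb controls also parted on empty-vector replicate 1, at 13.82 at the 3′ end and 11.27 at the 5′ end. They read 13.90 and 13.64 on replicate 2, and 13.94 to 13.97 and 13.63 to 13.72 on the shRNA arrays. The gap on replicate 1 was thus not confined to a glycolytic gene, but it was not seen in every control. The dimmer Pcx controls read 7.08 at the 3′ end and 6.43 at the 5′ end on replicate 1, and 7.31 and 6.21 on replicate 2. For Tfrc the ends read 6.30 and 3.70 on replicate 1, and 5.68 and 3.50 on replicate 2. The root mean square deviation of the members from their group mean was 0.307 in the empty vector, 0.0889 with shRNA1 and 0.0699 with shRNA2. The fit assumes 1 spread for all groups.

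The first comparison set the shRNA arrays of both kinds against empty vector. Of the 10, 9 had a positive difference, against 46.4% of all genes, and the median was 0.72, compared with -0.023 over all genes. In 8 members all 4 shRNA arrays lay above both empty-vector arrays, which held for 11.5% of genes. No member passed the threshold by limma, which 2.13% of genes did. At an unadjusted p under 0.05, 8 members were higher, against 7.88% of genes. The members were chosen with earlier results of these data known, so the shares describe them and test nothing. The count of calls depends on the control arrays. Without empty-vector replicate 1 it was 5 (Bnip3, Pgk1, Pfkl, Tpi1 and Aldoc, with 5.24% of genes called), and without replicate 2 it was 4 (Bnip3, Pgk1, Pgam1 and Aldoc, with 25.2% called). With 1 control array left, that arm has no spread of its own, and the fit takes it from the shRNA arrays, which varied less. An adjusted p from such a fit assumes that the lone control varies like them, and a smaller one is no added support. The number of members whose shRNA arrays all lay above the remaining control was 9 without empty-vector replicate 1 (29.4% of genes) and 8 without replicate 2 (28% of genes).

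**Figure D1:**
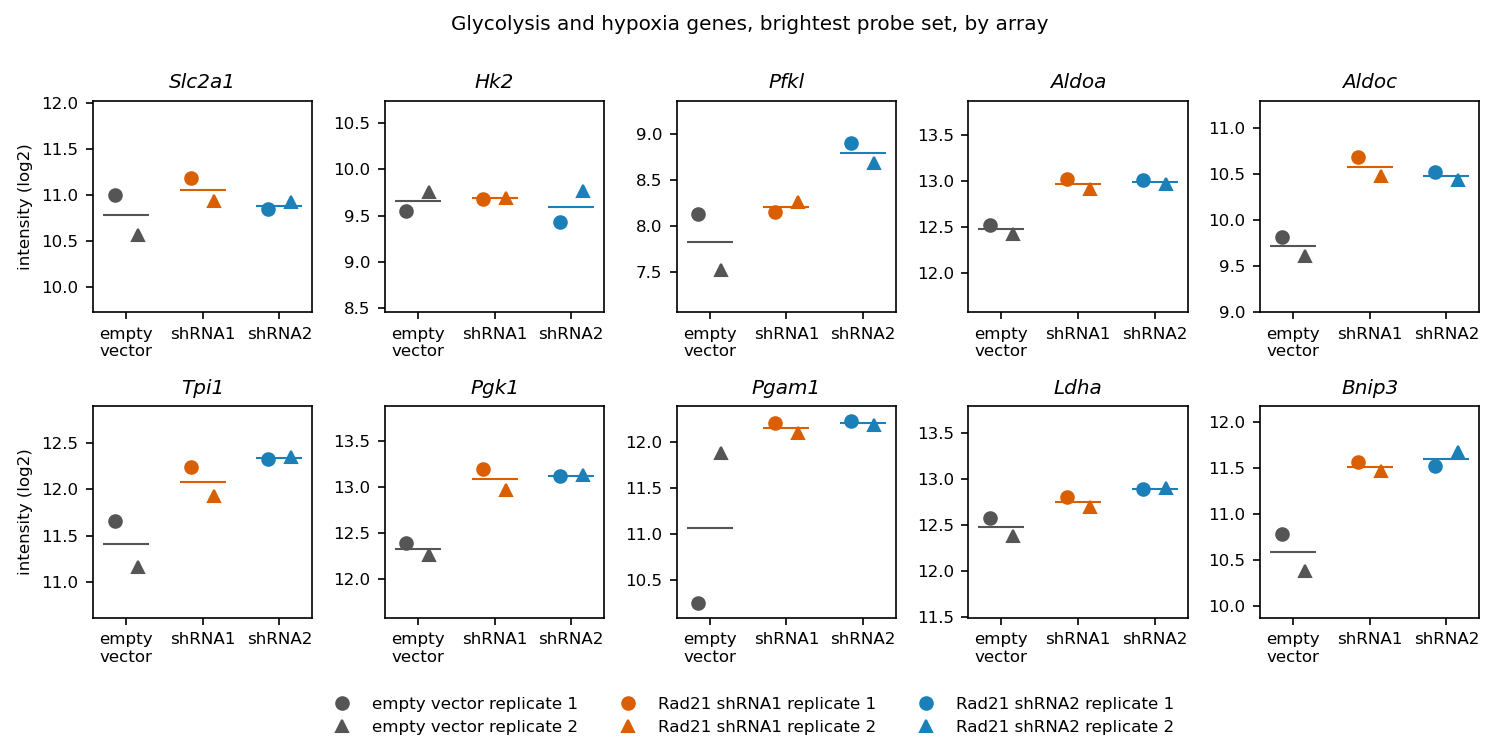
Log2 intensity of the brightest probe set of each of the 10 genes on each of the 6 arrays (y axis, every panel spanning the same number of log2 units), by group (x axis); circles are replicate 1, triangles replicate 2 and lines group means. The shRNA arrays lie above both empty-vector arrays in 8 panels, and in Slc2a1 and Hk2 the groups overlap.

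At the entry step the groups overlapped. Slc2a1, encoding the glucose transporter GLUT1, read 11.00 and 10.56 in empty vector, 11.19 and 10.93 with shRNA1 and 10.85 and 10.93 with shRNA2. Empty-vector replicate 1 lay above 3 of the 4 shRNA arrays and replicate 2 below all of them. The difference was 0.19 ± 0.18 (95% interval -0.25 to 0.63, adjusted p = 0.657), and -0.031 without empty-vector replicate 2. Its other probe sets differed by 0.23 ± 0.16 (1426599_a_at) and 0.31 ± 0.14 (1426600_at). In the last one all shRNA arrays (9.33 to 9.64) lay above both controls (9.06 and 9.16).

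Hk2, the hexokinase that traps glucose in the cell as its phosphate, read 9.55 and 9.76 in empty vector, 9.68 and 9.69 with shRNA1 and 9.43 and 9.76 with shRNA2. The shRNA2 arrays lay on either side of the others. The difference was -0.012 ± 0.16 (95% interval -0.40 to 0.37, adjusted p = 0.981), so a rise of more than 0.37 or a fall past -0.40 lies outside the interval.

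Pfkl, the liver-type subunit of phosphofructokinase, the main control point of the pathway, was the member in which the shRNAs stood furthest apart. It read 8.14 and 7.52 in empty vector, 8.16 and 8.26 with shRNA1 and 8.90 and 8.69 with shRNA2. Both shRNA2 arrays lay above both shRNA1 arrays, and the lower shRNA1 array was close to empty-vector replicate 1. The difference for both shRNAs was 0.67 ± 0.21 (1.59-fold, adjusted p = 0.190), 0.98 without empty-vector replicate 1 and 0.37 without replicate 2. The second Pfkl probe set ran the same way, at 7.94 and 7.62, then 7.97 and 8.15, then 8.49 and 8.45 in the same order of arrays.

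The aldolases, isozymes of 1 step, were both higher on all shRNA arrays. Aldoa, the widely expressed form, read 12.52 and 12.42 in empty vector, 13.02 and 12.91 with shRNA1 and 13.01 and 12.97 with shRNA2. Its difference was 0.50 ± 0.13 (1.42-fold, adjusted p = 0.128). Aldoc, best known from brain, read 9.81 and 9.61 in empty vector, 10.68 and 10.47 with shRNA1 and 10.52 and 10.44 with shRNA2, a difference of 0.81 ± 0.14 (1.76-fold, adjusted p = 0.0558). The second Aldoc probe set (1424714_at) read 6.59 and 6.34 in empty vector and 7.41 to 7.96 on the shRNA arrays, a difference of 1.18 ± 0.19. All 4 Aldoa sets and both Aldoc sets had no overlap between shRNA and control arrays. Every Aldoa set is an _x_at set, with probes that also match other sequences, and whether these add to the readings was not tested.

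Tpi1, triosephosphate isomerase, read 11.66 and 11.16 in empty vector, 12.24 and 11.93 with shRNA1 and 12.33 and 12.35 with shRNA2. All shRNA arrays were higher than both controls, by 0.80 ± 0.19 (1.74-fold, adjusted p = 0.114, and 0.0332 and 0.0621 without empty-vector replicates 1 and 2). Pgk1, phosphoglycerate kinase, the first step that makes ATP, read 12.39 and 12.26 in empty vector, 13.19 and 12.97 with shRNA1 and 13.11 and 13.12 with shRNA2. Its groups were apart on this probe set, by 0.77 ± 0.14 (1.71-fold, adjusted p = 0.0572, and 0.0416 and 0.0220 against a single control array, without empty-vector replicates 1 and 2).

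Pgam1, phosphoglycerate mutase, had the largest difference of the 10, 1.11 ± 0.43, and also the most discordant controls. It read 10.25 and 11.88 in empty vector and 12.09 to 12.23 on the 4 shRNA arrays. Empty-vector replicate 1 was 1.62 below replicate 2, a gap at least as large as this in 2.82% of genes. The difference was 0.30 without empty-vector replicate 1 (adjusted p = 0.278) and 1.93 without replicate 2 (adjusted p = 0.00240), compared with an adjusted p of 0.275 with both.

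Ldha, the muscle-type subunit of lactate dehydrogenase, read 12.58 and 12.39 in empty vector, 12.80 and 12.69 with shRNA1 and 12.89 and 12.90 with shRNA2. The shRNA arrays were all above the controls by a small margin, with a difference of 0.34 ± 0.13 (1.26-fold, adjusted p = 0.285). Bnip3 read 10.78 and 10.38 in empty vector, 11.56 and 11.46 with shRNA1 and 11.52 and 11.67 with shRNA2. Its levels were about 2-fold apart without overlap, by 0.97 ± 0.16 (1.96-fold, adjusted p = 0.0516, and 0.0165 and 0.0148 against a single control array, without empty-vector replicates 1 and 2).

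The size of several differences depended on the probe set. Over the 21 probe sets, 20 had a positive difference and 15 had all shRNA arrays above both controls, compared with 11.7% of all probe sets. With every probe set tested on its own, none of the 21 passed for both shRNAs together, against 0.927% of all, and the smallest adjusted p was 0.0575, for Tpi1 set 1415918_a_at (0.94 ± 0.14). For shRNA2 alone that set rose by 1.08 (adjusted p = 0.0467, the only call among the 21, against 1.51% of all probe sets). On it the controls read 11.31 and 11.28, and the shRNA arrays 11.96 to 12.40.

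On Pgk1 set 1417864_at empty-vector replicate 1 was 0.13 above replicate 2, but on sets 1438640_x_at and 1439435_x_at it was 0.87 and 1.03 above. There it read 12.92 and 12.00, within the shRNA ranges of 12.84 to 13.02 and 11.83 to 12.01. Against that array alone the difference of those sets was 0.030 and -0.058, and against replicate 2 alone it was 0.90 and 0.97. Tpi1 set 1435659_a_at behaved in the same way, with controls of 11.35 and 10.42 and shRNA arrays of 11.19 to 11.69. Aldoa set 1433604_x_at went the other way, with controls of 10.83 and 11.74 and shRNA arrays of 12.29 to 12.51. The suffix _x_at marks a set some of whose probes also match other sequences, and _a_at one that matches several transcripts of its gene. All Aldoa sets and the brightest Tpi1 set (1452927_x_at) are of the first kind. Whether the 3′ to 5′ gap of empty-vector replicate 1 has a part in these splits was not tested.

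**Figure D2:**
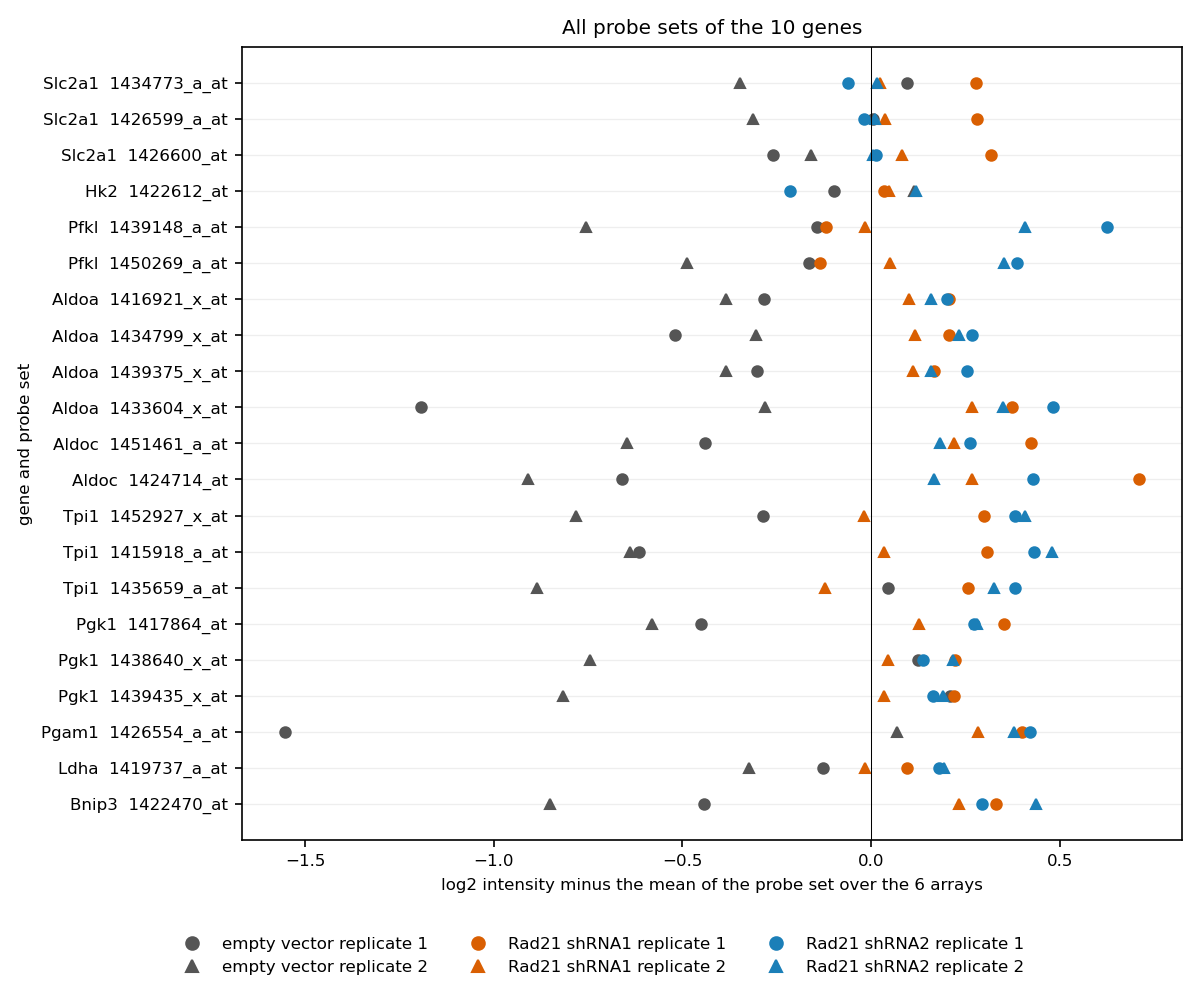
Log2 intensity of all 21 probe sets on each array, minus the mean of that probe set over the 6 arrays (x axis), by gene and probe set (y axis); colour is the group and the marker the replicate number. Empty-vector replicate 1 moves from the left edge (Pgam1, Aldoa 1433604_x_at) to among the shRNA arrays (Pgk1 1438640_x_at and 1439435_x_at), while replicate 2 lies left of all shRNA arrays in 20 sets, Hk2 being the exception.

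The second comparison set each shRNA against empty vector. These contrasts share the 2 control arrays, so they are not independent. With shRNA1 all 10 members had a positive difference (44.8% of genes did), with a median of 0.58. No member passed by limma (0.234% of genes did), and 5 were higher at an unadjusted p under 0.05 (3.86% of genes). With shRNA2, 9 were positive (48.4% of genes) with a median of 0.78, none passed (2.83% of genes did), and 7 were higher at an unadjusted p under 0.05 (8.59% of genes). Bnip3 differed by 0.93 ± 0.19 with shRNA1 and 1.01 ± 0.19 with shRNA2 (adjusted p = 0.181 and 0.0574), and Pgk1 by 0.75 ± 0.16 and 0.79 ± 0.16 (0.189 and 0.0667). Aldoc differed by 0.86 ± 0.16 and 0.76 ± 0.16 (adjusted p = 0.158 and 0.0787). Without empty-vector replicate 1 there was 1 call for shRNA1 (Bnip3, with 1% of all genes called) and 5 for shRNA2 (8.89%). Without replicate 2 there were 4 (20.4%) and 6 (23.7%).

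The effects of the 2 shRNAs were compared directly, as shRNA1 minus shRNA2. No gene of the whole table passed by limma (0% of 12393, with 4.89% at an unadjusted p under 0.05), so no member did, and 1 member, Pfkl, had an unadjusted p under 0.05. Pfkl was lower with shRNA1 by -0.58 ± 0.24 (95% interval -1.16 to -0.0017, adjusted p = 0.999). For Bnip3 the interval was -0.55 to 0.38, for Pgk1 -0.43 to 0.35, for Aldoa -0.39 to 0.33 and for Aldoc -0.30 to 0.50. For Pgam1 it was -1.27 to 1.15. The intervals allow differences between the shRNAs as large as these bounds.

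**Figure D3:**
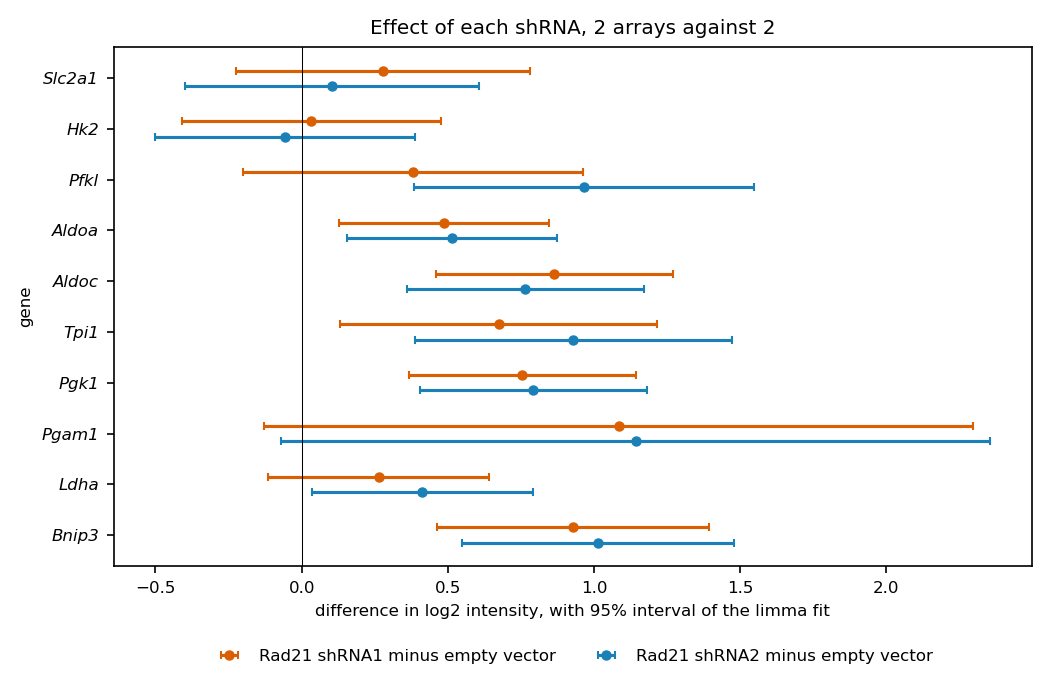
Difference in log2 intensity from empty vector (x axis) for shRNA1 and shRNA2 in each gene (y axis), with bars for the 95% interval of the limma fit, 2 arrays against 2. The Hk2, Slc2a1 and Pgam1 intervals include 0 for both shRNAs and those of Pfkl and Ldha for shRNA1, Pgam1 has the widest, and Pfkl is 0.38 with shRNA1 and 0.96 with shRNA2.

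Other genes of the pathway did not share one direction. Of 17 other glycolysis genes measured, 10 had a positive and 7 a negative difference (46.4% of all genes had a positive one), with a median of 0.14. The list averaged 8.02 and 7.69 on empty-vector replicates 1 and 2 and 7.77 to 7.81 on the shRNA arrays. The shRNA averages thus lay between the controls, and the direction of the average depended on the control array. The list mixes bright genes with dim ones, such as Pgk2, Pfkfb2 and Pgam2 (percentiles 9.57, 27.08 and 33.43 of genes). Its counts, median and averages are therefore not those of the bright genes alone. None passed by limma, and 4 were higher and 3 lower at an unadjusted p under 0.05. Gpi1, Eno1 and Gapdh had no probe set used here. Pkm, pyruvate kinase, which makes ATP in the last step, read 11.93 and 11.41 in empty vector and 12.12 to 12.30 with the shRNAs (0.56 ± 0.18, adjusted p = 0.205). Without empty-vector replicate 1 the Pkm difference was 0.82 (adjusted p = 0.0327) and without replicate 2 it was 0.30 (0.145). Slc16a1, a lactate and pyruvate transporter, differed by 0.62 ± 0.18 (adjusted p = 0.174). The opposite sign was seen in Slc2a3, the glucose transporter GLUT3, which read 12.63 and 12.02 in empty vector, 11.25 and 11.75 with shRNA1 and 10.89 and 10.95 with shRNA2. All its shRNA arrays were below both controls, by -1.12 ± 0.23 (adjusted p = 0.0867). Without empty-vector replicate 1 the Slc2a3 difference was -0.81 (adjusted p = 0.104), without replicate 2 it was -1.42 (0.00900), and with its probe sets averaged it was -0.72 (0.0583). Eno2, an enolase isozyme, differed by -0.67 ± 0.18 (adjusted p = 0.152), but it was dim, with a mean of 5.05, at percentile 23.99 of genes.

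Among 27 other genes of the hypoxia response, 20 had a positive difference (46.4% of all genes did) and 2 rose (0.734% of all genes did). The median was 0.25 (0.54 without empty-vector replicate 2). With shRNA1 alone 21 were positive (44.8% of all genes), with a median of 0.45. With shRNA2 alone 16 were positive (48.4% of all genes), with a median of 0.26. Mif, a cytokine, read 11.13 and 11.57 in empty vector and 12.38 to 12.65 with the shRNAs, a rise of 1.19 ± 0.17 (adjusted p = 0.0333). It passed without either control array, at 0.97 and 1.41, but the call was lost when any 1 of the 4 shRNA arrays was left out (adjusted p = 0.107 to 0.176) and when every probe set was tested on its own (0.0516). Egln1, the prolyl hydroxylase PHD2 that marks HIF for destruction when oxygen is present, read 8.20 and 8.46 in empty vector and 9.08 to 9.36 with the shRNAs, a rise of 0.91 ± 0.15 at an adjusted p of 0.0499. That call held only with quantile normalization, with median centring and without empty-vector replicate 2 (adjusted p = 0.0439, 0.0462 and 0.00873), and was lost under the other alternatives, among them leaving out empty-vector replicate 1 (0.0532) or any 1 shRNA array (0.129 to 0.229) and the replicate block (0.0656). At an unadjusted p under 0.05, 10 genes of this list were higher and 4 lower. Chosen after their values were seen, Fam162a (1.20 ± 0.23), Ak4 (1.24 ± 0.29) and Pdk1, which keeps pyruvate out of mitochondria (0.92 ± 0.20), had positive differences, and Ddit4 (-1.09 ± 0.25) and Bhlhe40 (-0.77 ± 0.17) negative ones, with adjusted p from 0.0706 to 0.111.

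HIF pathway regulators had a median of -0.18 over 9 genes, with no call by limma and 1 higher and 2 lower at an unadjusted p under 0.05. Hif1a, the oxygen-regulated subunit itself, differed by -0.37 ± 0.14 (adjusted p = 0.274), Epas1, or HIF-2 alpha, by -0.37 ± 0.15 (0.289), Crebbp, a coactivator, by -0.25 ± 0.20 (0.613) and Vhl, which targets HIF for degradation, by 0.48 ± 0.16 (0.225). The Vhl difference was 0.29 without empty-vector replicate 1 and 0.67 without replicate 2. Epas1 and Vhl were dim, with means of 5.10 and 5.49, at percentiles 24.64 and 30.25 of genes. HIF is controlled mainly through the stability of its protein, which these arrays do not measure.

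Pathways that branch from glycolysis were mixed. Pentose phosphate genes had 5 of 6 positive differences and a median of 0.34, which was -0.069 without empty-vector replicate 2. None of them passed by limma, with 2 higher at an unadjusted p under 0.05. Rpe, an epimerase, differed by 0.84 ± 0.25 (adjusted p = 0.179). It was 0.46 without empty-vector replicate 1 (adjusted p = 0.240), 1.22 without replicate 2 (0.00900) and 0.43 with its probe sets averaged (0.251). Pgls differed by 0.32 ± 0.12 (adjusted p = 0.281). Pgd differed by 0.47 ± 0.22 (adjusted p = 0.358), 0.81 without empty-vector replicate 1 (0.0467) and 0.13 without replicate 2 (0.594). Tkt, transketolase, differed by 0.37 ± 0.37 (adjusted p = 0.684), 1.05 without empty-vector replicate 1 (0.0379) and -0.30 without replicate 2 (0.264).

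Of 22 pyruvate dehydrogenase and citric acid cycle genes, 15 had positive differences, with a median of 0.27, no call by limma for both shRNAs, and 4 higher and 1 lower at an unadjusted p under 0.05. Fh1, fumarase, differed by 0.88 ± 0.17 (adjusted p = 0.0682). With shRNA2 alone Fh1 rose by 1.11 ± 0.20 (adjusted p = 0.0485), a call lost without any 1 of the 4 shRNA arrays (0.0919 to 0.365), with the replicate block (0.0590), with dim genes left out and with other variance settings. Idh3a differed by 0.74 ± 0.20, Pdk3 by 0.68 ± 0.20 and Pdha1 by 0.61 ± 0.14, and these 3 and Fh1 had adjusted p from 0.0112 to 0.0215 without empty-vector replicate 2 and from 0.0875 to 0.253 without replicate 1, where Idh3a was 0.47 and Pdk3 0.45. Gluconeogenesis genes had 3 positive and 4 negative differences, a median of -0.088 (-0.51 with the dimmest 25% of genes left out, which removes some of the list) and no call by limma, with 2 higher and 2 lower at an unadjusted p under 0.05. Fbp2 differed by 0.65 ± 0.14 (adjusted p = 0.0915), G6pc3 by 0.57 ± 0.20 (0.234), Pcx, pyruvate carboxylase, by -0.65 ± 0.16 (0.122) and Pck2 by -0.51 ± 0.13 (0.137). Fbp2 was dim, with a mean of 5.76, at percentile 33.45 of genes. G6pc3 was 0.27 without replicate 1 (adjusted p = 0.341) and 0.87 without replicate 2 (0.00921).

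**Figure D4:**
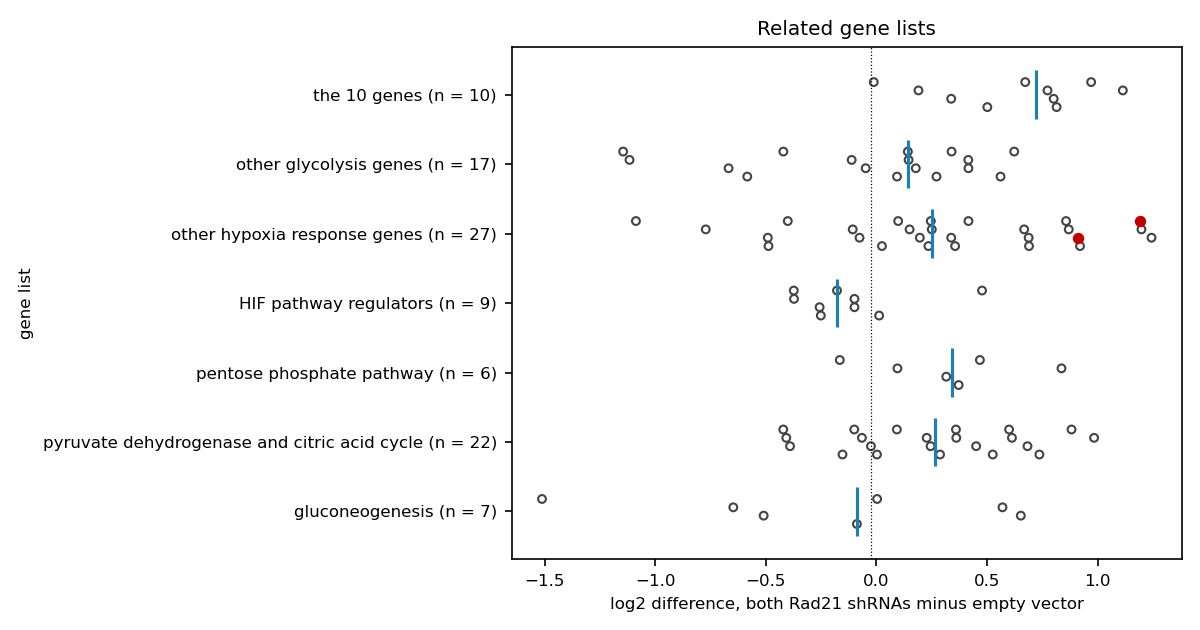
Difference for both shRNAs minus empty vector on the log2 scale (x axis) of each gene of the 10 and of the related lists (y axis); filled red points passed the threshold, open ones did not, blue bars are list medians and the dotted line is the median of all genes. The medians run from 0.72 for the 10 genes to -0.18 for the HIF regulators, and Mif and Egln1 are the filled points.

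Levels of some cell type markers moved with the same groups, and counts of calls are for both shRNAs together unless said otherwise. Neutrophil markers averaged 10.12 and 9.08 on the empty-vector arrays and 11.87 to 12.77 on the shRNA arrays. All 11 had every shRNA array above both controls (11.5% of genes did), and 6 of 11 rose for both shRNAs together (0.734% of genes did). With shRNA1 alone 3 rose (0.0968% of genes did), and with shRNA2 alone 6 (0.88%). Mitosis genes averaged 8.87 and 7.98 in empty vector and 9.16 to 9.91 with the shRNAs, and 4 of 9 rose. Monocyte and macrophage markers averaged 9.58 and 10.42, then 10.14 and 10.25 with shRNA1 and 9.14 and 9.09 with shRNA2. Of these 9, 1 rose and 2 fell, while 0.734% of all genes rose and 1.4% fell. Mast cell markers averaged 11.51 and 12.12 in empty vector and 10.64 to 11.16 with the shRNAs, with 2 of 8 falling, and megakaryocyte markers 10.64 and 10.37 against 8.76 to 9.74, with 1 of 6 falling. With shRNA1 alone the mitosis, monocyte and macrophage, mast cell and megakaryocyte lists had no call. Erythroid markers averaged 8.87 on empty-vector replicate 1, 7.22 on replicate 2 and 6.58 to 7.11 with the shRNAs, with no call among 8. The B cell, T and NK cell and stromal and endothelial lists averaged at most 5.96 on any array. Within the stromal list Pdgfrb read 5.34 and 3.81 in empty vector and 5.48 to 7.48 with the shRNAs, without overlap (2.08 ± 0.46, adjusted p = 0.0976). Ptprc, Spi1 and Laptm5, a short list of blood cell genes, averaged 11.37 to 11.56, with Spi1 alone at 9.09 to 9.67. No array reads 0 for a marker, since RMA gives every probe set a value. The part that cell types or dividing cells have in the members' differences was not tested.

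Averaged over the 10 genes after centring each on its mean, the arrays stood at -0.37 and -0.45 in empty vector, 0.23 and 0.098 with shRNA1 and 0.24 and 0.26 with shRNA2. Among the 6186 genes above the median level, members left out, the 5 whose centred values lay closest to this profile were Lamtor4, Phka2, Cct5, Twf2 and Mrpl20. Their differences for both shRNAs were 0.60, 0.47, 0.59, 0.55 and 0.56, and in all 5 the shRNA arrays lay above both controls, as closeness to the profile requires. Closeness was the root mean square distance over the 6 arrays, and it says nothing of shared function.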

How the data were processed

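Per the labels, RNA was biotin-labelled and hybridized to Affymetrix arrays. The deposited table holds 1 intensity per probe set and array, which the authors computed by RMA (named in the submitters' processing notes). RMA corrects background, quantile-normalizes arrays and summarises probes, so it hides any change in the total amount of RNA per cell. The sources used here give neither its version nor a genome build. Values ran to 20614.6, so they were on a linear scale, and log2 was taken with no pseudocount and no filter. Groups and replicate numbers came from sample titles.

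Of 22690 probe sets, 20393 had 1 gene in the platform annotation, 691 several and 1606 none listed. After leaving out 64 Affymetrix controls, 20380 remained, covering 12393 genes, and the brightest probe set represented a gene. The 3 groups were fitted together with limma (lmFit, eBayes, version 3.58.1, R 4.3.3), with 3 residual and 2.91 prior degrees of freedom. Tests were two-sided, and p-values were adjusted by Benjamini-Hochberg over all genes, or over all probe sets where each was tested on its own. The fit was run on simulated arrays that gave a gene the same spread in every group. That run could not check the unequal spread of these groups (root mean square deviation over all genes 0.321 in empty vector, 0.151 with shRNA1 and 0.141 with shRNA2). Tables were made with Python 3.11.15 and pandas 2.3.3.

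The members, the related lists and the tests were chosen with earlier results of these data known. The text names every member. From each related list it names the genes past the threshold for both shRNAs, or else the 4 with the smallest p, and says where a gene was chosen otherwise. RefSeq promoters of GRCm38.p6 matched all 10 members. Alternatives were another gene summary, filters on dim genes, normalizations, variance settings, the replicate number as a block, and each array left out.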

Additional observations from a re-analysis of the deposited data

How the results depend on the processing

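No member passed for both shRNAs under 11 of 15 alternatives, and by limma 2 passed when a gene's probe sets were averaged (Bnip3 and Aldoc, with 1.86% of all genes called) and 2 with an intensity trend (Bnip3 and Pgk1, with 2.07%). With an array left out the number ran from 0 to 5 for both shRNAs, from 0 to 4 for shRNA1 and from 0 to 6 for shRNA2, while the share of all genes called ran from 0.0242% to 25.2%, from 0% to 20.4% and from 0% to 23.7%. The number was above 0 only without a control array. For shRNA2 it was 1 with an intensity trend (Pgk1). The members' median stayed between 0.50 (without empty-vector replicate 2) and 0.75. Signs turned in members near 0. With an array left out, Slc2a1 ran from -0.031 to 0.41 for both shRNAs and from -0.12 to 0.32 for shRNA2, and Hk2 from -0.073 to 0.14 for shRNA1 and from -0.22 to 0.11 for shRNA2. For shRNA1 minus shRNA2 the ranges were -0.15 to 0.075 in Pgk1, -0.077 to 0.26 in Hk2, -0.081 to 0.027 in Aldoa and -0.0027 to 0.20 in Aldoc. Hk2 for both shRNAs was 0.094 without empty-vector replicate 2 and 0.072 without shRNA2 replicate 1. For shRNA1 Hk2 was -0.00046 with quantile normalization and -0.073 without empty-vector replicate 1, and for shRNA2 it was 0.049 without empty-vector replicate 2 and 0.11 without shRNA2 replicate 1. Slc2a1 was -0.031 for both and -0.12 for shRNA2 without empty-vector replicate 2. For shRNA1 minus shRNA2, Pgk1 (0.075), Pgam1 (0.00021) and Aldoa (0.027) turned without shRNA1 replicate 2, Aldoc (-0.0027) without shRNA1 replicate 1 and Hk2 (-0.077) without shRNA2 replicate 1. Tkt was -0.30 without empty-vector replicate 2 and 1.05 without replicate 1. The causes were not tested.

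Same-numbered arrays of the 3 groups deviated together (correlations across genes of 0.199, 0.148 and 0.578), but with 2 numbers per group and nothing in the labels this does not establish pairs. With the replicate block the number of members past the threshold was 0 in all 4 contrasts, with 7 at an unadjusted p under 0.05 for both shRNAs, and 288 genes in place of 264 passed. The count over all genes was 113 with the dimmer 50% of genes left out, 189 probe sets on their own, 649 and 3121 without empty-vector replicates 1 and 2, and 3 to 93 without 1 shRNA array. The number of arrays, 2 per group, limits the precision. Alternatives for the related genes, and the counts without overlap, were chosen after seeing the data.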

Other observations

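The genes named here were chosen after their values were seen. In Bpgm, Pfkm and Fbp1 the control arrays parted widely, as they did in other genes, among them Cited2 (9.37 and 11.48). Bpgm, which makes the 2,3-bisphosphoglycerate of red cells, read 9.71 and 7.95 in empty vector and 7.48 to 7.82 with the shRNAs. Pfkm, the muscle-type phosphofructokinase subunit, read 8.67 and 7.24 in empty vector and 7.31 to 7.41 with the shRNAs. Fbp1, the gluconeogenic fructose bisphosphatase, read 5.82 and 9.74 in empty vector and 5.97 to 6.68 with the shRNAs. Lox, which cross-links collagen and responds to hypoxia, read 4.56 and 4.62 in empty vector, 6.20 and 5.79 with shRNA1 and 5.05 and 4.83 with shRNA2. It was higher with shRNA1 than with shRNA2 by 1.06 ± 0.20, which did not pass over all genes (limma adjusted p = 0.340).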
